A study of Mus musculus with 26 samples.

Results

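Short interspersed elements (SINEs) are copies of small retrotransposed genes, and 3665 of the 94171 autosomal ATAC-seq peaks of mouse Kupffer cells lay in them outside promoters. A peak was taken where its deposited detailed annotation named a SINE on chromosomes 1 to 19 and its annotation was not a promoter, a choice that used no tag counts. The libraries came from Kupffer cells, macrophages that reside in liver sinusoids, sorted from male mice aged 8 to 12 weeks. C57BL/6J mice (3 libraries), BALB/cJ mice (2 libraries) and their F1 hybrid CB6F1/J (5 libraries) were fasted overnight and taken 2 h after an intraperitoneal dose of 0.1 mg/kg lipopolysaccharide (LPS), a component of the bacterial wall sensed through TLR4. The controls were C57BL/6J, BALB/cJ, CB6F1/J and A/J mice (4 libraries each), and no A/J mice given LPS are among the libraries. The study's methods give fasting and no injection for littermate controls of the LPS experiment. They do not say which control libraries came from those mice or whether A/J controls were fasted, so a part of feeding was not tested. Library numbers follow the labels, and the study's text gives those of both inbred LPS groups the other way round. The labels name no engineered allele in any of the 26 libraries, and nothing in the labels shows that the libraries of a group came from separate litters or days.

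B1 elements derive from 7SL RNA and are the rodent counterparts of primate Alu, B2 elements derive from a tRNA, and B4 elements join a B1 part to an ID part. MIR elements are older than the split of the mammalian orders and are short, diverged fragments. SINEs carry an internal RNA polymerase III promoter, and some copies hold binding sites for transcription factors, of which CTCF sites in B2 are a known example in the mouse. ATAC-seq reports where a transposase can insert adapters, so a tag count measures accessibility at the element and its flanks, not transcription of the element.

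The bases of 6 SINE peaks are shown as the mm10 plus strand, 1 for each family that gained accessibility under LPS in all 3 LPS comparisons and 2 that lost it in the inbred strains. In the first 4, peaks next to Ppp3cc (chr14:70263484-70263684), Hdac9 (chr12:34612604-34612804), Esd (chr14:74699363-74699563) and Magi2 (chr5:19970163-19970363), capitals mark TGANTCA, the letters bound by AP-1 dimers of FOS and JUN proteins. Of these matches, that of Esd alone lies in soft-masked bases of the reference, and the other 3 peaks hold the letters in unmasked bases, which may flank the annotated element. In the last 2, next to Cox4i2 (chr2:152763544-152763744) and Aacs (chr5:125484117-125484317), capitals mark bases that lie in 30-mers found at another place of mm10, 145 and 169 bases of the peak.
Ppp3cc PB1D11 (B1): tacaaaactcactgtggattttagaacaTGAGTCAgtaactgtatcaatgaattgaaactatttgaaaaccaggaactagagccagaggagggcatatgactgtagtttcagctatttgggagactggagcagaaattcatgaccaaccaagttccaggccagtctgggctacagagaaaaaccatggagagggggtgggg
Hdac9 B3A (B2): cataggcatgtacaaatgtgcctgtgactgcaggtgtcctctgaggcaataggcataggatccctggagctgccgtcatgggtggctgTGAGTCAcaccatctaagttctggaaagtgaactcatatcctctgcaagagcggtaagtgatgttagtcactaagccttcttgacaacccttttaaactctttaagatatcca
Esd B4 (B4): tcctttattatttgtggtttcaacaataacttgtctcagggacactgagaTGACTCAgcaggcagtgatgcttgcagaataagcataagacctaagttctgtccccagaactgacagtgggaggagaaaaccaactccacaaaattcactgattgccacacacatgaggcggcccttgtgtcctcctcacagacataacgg
Magi2 MIR (MIR): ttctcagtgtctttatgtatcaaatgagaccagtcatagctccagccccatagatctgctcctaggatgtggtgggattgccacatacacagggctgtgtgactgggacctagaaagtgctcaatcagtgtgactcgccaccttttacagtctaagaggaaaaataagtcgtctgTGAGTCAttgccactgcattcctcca
Cox4i2 B1_Mm (B1): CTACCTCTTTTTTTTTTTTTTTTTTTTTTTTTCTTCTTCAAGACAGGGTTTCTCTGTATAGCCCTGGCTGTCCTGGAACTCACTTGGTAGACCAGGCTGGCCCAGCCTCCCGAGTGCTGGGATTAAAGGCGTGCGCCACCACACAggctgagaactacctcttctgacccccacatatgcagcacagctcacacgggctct
Aacs B2_Mm1a (B2): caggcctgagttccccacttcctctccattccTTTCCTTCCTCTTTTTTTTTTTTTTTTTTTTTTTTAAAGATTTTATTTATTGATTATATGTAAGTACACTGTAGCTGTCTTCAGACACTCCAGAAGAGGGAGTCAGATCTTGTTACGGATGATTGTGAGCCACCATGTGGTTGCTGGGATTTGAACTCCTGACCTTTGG

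Total tags, in units of 1e6, ranged from 8.76 to 25.4 in 16 of the 17 inbred libraries and reached 178.3 in BALB/cJ control replicate 4. Promoter peaks were present for 10 of 10 Kupffer cell marker genes, 0 of 7 hepatocyte, 0 of 6 lymphocyte, 2 of 6 endothelial, 2 of 6 neutrophil and 1 of 4 stellate cell genes. The summed Kupffer marker level was 765 to 1066 normalised tags in C57BL/6J LPS and 1276 to 1415 in C57BL/6J control, and 649.9 to 767.5 in BALB/cJ LPS and 1246 to 1506 in BALB/cJ control. The neutrophil sum was not higher under LPS (84.1 to 106.7 against 117.0 to 152.5 in C57BL/6J, 70.4 to 71.4 against 118 to 168 in BALB/cJ), and the part of cell composition in the results below was not tested. In bulk libraries, an element open in more cells and an element more open in each cell cannot be told apart. The names of all inbred control libraries carry a trim to 30 bases and those of the inbred LPS libraries do not, and their dates differ, so LPS and library preparation cannot be told apart within an inbred strain. The names of the hybrid columns used here show neither a trim nor a date. Whether hybrid control and LPS libraries were handled alike was not tested. Among inbred libraries, the C57BL/6J controls alone lack the word shift in their names and have a header fragment length of 34. In any comparison with them, strain or LPS and this handling cannot be told apart.

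B2 was the most frequent family with 1114 peaks (30.4% of the members), ahead of B4 with 1007, MIR with 748 and B1 with 697, and 99 peaks lay in ID and other SINEs. The most frequent subfamilies were B3 (504 peaks), RSINE1 (314), B3A (308), B4A (288), ID_B1 (270), MIRb (260) and B2_Mm2 (233). Introns held 2131 of the peaks and intergenic sequence 1534. The median distance to the nearest transcription start was 10026 bases for B2, 10668 for B1, 13420 for B4 and 20012 for MIR. MIR peaks had the highest median level in C57BL/6J control libraries, 17.5 normalised tags, against 13.3 in B2, 12.6 in B4, 12.5 in B1 and 15.9 over all autosomal peaks outside promoters. A normalised tag count here is the count in a 1000-base window on the peak divided by the relative effective library size. Of the members, 25.7% were in all 5 reproducible peak lists of the inbred groups, against 39.8% of all autosomal peaks, which include promoters. This share was not taken over peaks outside promoters alone. By family, 40.4% of MIR, 26.1% of B4, 23.2% of B1 and 16.3% of B2 peaks were in all 5 lists, and 1160 members were in 1 list alone.

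Sequence set the families apart as well. Within the printed interval of a peak, no 30-mer recurred elsewhere in mm10 for 97.2% of MIR, 77.9% of B4, 57.2% of B1 and 37.2% of B2 peaks. At least 50% of the 30-mers recurred in 142 members, of which 72 were B2, 61 B1, 7 B4 and 1 MIR. The ETS letters AGGAAGT, bound by PU.1, the lineage-determining factor of macrophages, occurred in 27.7% of MIR, 18.1% of B4, 13.5% of B1 and 10.8% of B2 peaks, against 20.2% of all autosomal peaks of the same length. The C/EBP letters TTGCNNAA occurred in 19.9% of MIR and 8.53% of B2 peaks, against 11.5% of all autosomal peaks. A CTCF core was found in 2.15% of B2 and 1.32% of all autosomal peaks, and an NF-kB half-site pair (GGGA and CC with 4 bases between) in 7.04% of the members and 13.9% of all autosomal peaks. The AP-1 letters TGANTCA were in 20.2% of the members, with 16.9% of B1 and 20.9 to 21.3% of the other named families, against 14.3% of all autosomal peaks. Letters were searched on both strands and do not show that a factor was bound.

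To ask whether SINEs as a class gained accessibility, the share of all autosomal peak tags that fell in members was compared between LPS and control libraries. The share was 2.29 to 2.54% in the 3 C57BL/6J LPS libraries and 1.89 to 2.09% in the 4 C57BL/6J control libraries. In BALB/cJ it was 2.52 to 2.58% under LPS and 1.92 to 2.06% in controls. In CB6F1/J the share was taken of tags in hybrid peaks that matched autosomal inbred peaks, an unlike denominator. On that base CB6F1/J had 2.26 to 2.35% under LPS and 2.00 to 2.10% in controls. A/J controls had 1.82 to 1.98% of all autosomal peak tags. LPS and control libraries did not overlap in any of the 3 strains, and the ratio of their medians was 1.27 in C57BL/6J, 1.27 in BALB/cJ and 1.13 in CB6F1/J. The ratios were 1.12, 1.13 and 1.06 when the share was taken of tags in peaks outside promoters. MIR had the steadiest ratio, 1.32 in C57BL/6J, 1.28 in BALB/cJ and 1.26 in CB6F1/J. B2 varied most, with 1.23, 1.37 and 1.05, and fell to 0.968 in CB6F1/J against peaks outside promoters.

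**Figure D1:**
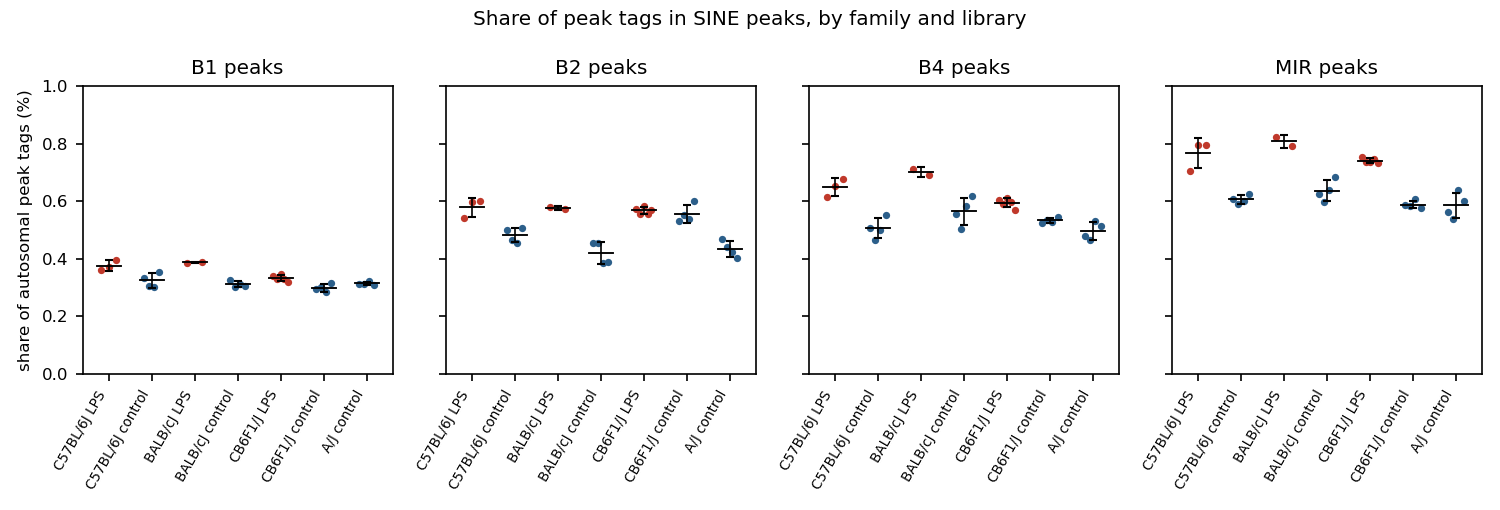
Share of autosomal peak tags (%) in B1, B2, B4 and MIR peaks for each library, with a point per library, a line at the group mean and a bar of 1 SD. LPS libraries are red and control libraries blue. CB6F1/J shares are of tags in hybrid peaks that matched autosomal inbred peaks, so their heights are not comparable with the inbred ones. MIR shares were 0.705 to 0.796% in C57BL/6J LPS and 0.591 to 0.626% in C57BL/6J control libraries, and B2 shares overlapped only in CB6F1/J, with 0.556 to 0.582% under LPS and 0.529 to 0.601% in controls.

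Single elements were then tested with edgeR's quasi-likelihood model over all peaks, and calls needed both a Benjamini-Hochberg adjusted p below 0.05 and a log2 ratio beyond 1 in either direction. In C57BL/6J, 541 of 3492 tested members rose and 229 fell, that is 15.5% and 6.56%. Over all tested peaks 12.3% rose and 8.07% fell, and over autosomal peaks outside promoters 14.2% and 7.17%. In BALB/cJ, 722 of 3488 members rose (20.7%) and 293 fell (8.40%), beside 16.2% and 11.3% of all peaks and 18.4% and 9.89% of peaks outside promoters. In CB6F1/J, where 2910 members had a matching peak, 831 of 2906 rose (28.6%) and 171 fell (5.88%), beside 16.3% and 10.7% of all peaks of the hybrid and 26.1% and 7.55% of the matched peaks outside promoters. The total of 770 calls in C57BL/6J was 469 without LPS replicate 3, and the 1015 calls in BALB/cJ were 601 without LPS replicate 2. C57BL/6J LPS replicate 1 was the lowest of the 3 LPS libraries in 447 of the 541 members that rose.

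Among the 4 named families, MIR peaks rose most often and B2 peaks least often in all 3 comparisons. MIR peaks rose in 144 of 724 (19.9%), 174 of 733 (23.7%) and 235 of 632 (37.2%) tests in C57BL/6J, BALB/cJ and CB6F1/J. B4 peaks rose in 155 of 939 (16.5%), 20.5% of 950 and 236 of 785 (30.1%), and B1 peaks in 99 of 657 (15.1%), 133 of 656 (20.3%) and 140 of 490 (28.6%). B2 peaks rose in 130 of 1080 (12.04%), 204 of 1053 (19.4%) and 196 of 920 (21.3%). Among these families B1 peaks fell most often, in 9.74%, 13.1% and 8.16% of tests, and MIR peaks in 4.14%, 5.73% and 4.43%. The fewer ID and other SINEs rose in 14.1%, 16.7% and 30.4% of tests and fell in 4.35%, 9.38% and 11.4%. Among members with no repeated 30-mer the order changed in BALB/cJ, where 26.2% of B1, 25.6% of B2, 23.9% of MIR and 21.2% of B4 peaks rose, beside 19.1% outside promoters. In CB6F1/J the order among such members was MIR 37.2%, B1 34.8%, B4 29.4% and B2 23.01%, beside 26.5% outside promoters, and in C57BL/6J it was MIR 20.0%, B1 18.7%, B4 16.8% and B2 15.5%, beside 14.6%. Among such members B1 peaks fell in 4.74%, 6.23% and 6.55% of tests in C57BL/6J, BALB/cJ and CB6F1/J, B4 peaks in 4.51%, 8.47% and 8.39%, B2 peaks in 4.01%, 4.48% and 3.98% and MIR peaks in 3.83%, 5.04% and 4.39%, so B1 no longer fell most often in BALB/cJ and CB6F1/J. No test was made between families.

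**Figure D2:**
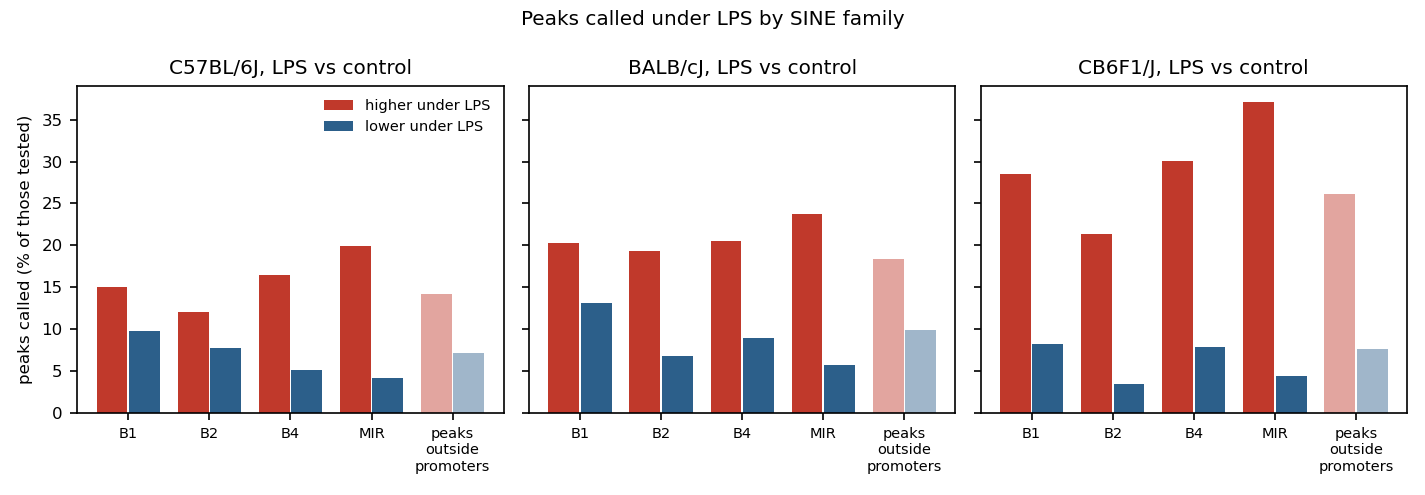
Percentage of tested peaks called higher (red) or lower (blue) under LPS for each SINE family, with all autosomal peaks outside promoters in paler bars. MIR has the tallest red bar in each strain, from 19.9% in C57BL/6J to 37.2% in CB6F1/J, and B1 the tallest blue bar among the 4 families shown.

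Many calls were shared. Of 3346 members tested in both inbred strains, 413 rose in both (12.3%) and 122 fell in both (3.65%), and 6 were called in opposite directions. Over autosomal peaks outside promoters tested in both, the shares were 11.2% and 4.27%. In the chromosome 11 interval described at the end, where C57BL/6J controls stand apart, 14 members rose in C57BL/6J and 8 fell in BALB/cJ. Of 2700 members tested in the hybrid too, 326 rose in all 3 (12.1%) and 16 fell in all 3 (0.593%), beside 10.8% and 0.826% outside promoters. Those that rose in all 3 were 88 of 597 MIR (14.7%), 88 of 714 B4 (12.3%) and 79 of 863 B2 (9.15%). The rest were 63 of 450 B1 (14.0%) and 8 of 76 other elements (10.5%).

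Among B1 elements, an intergenic PB1D7 at chr13:35564028-35564228, 95734 bases from the start of Cdyl, a chromodomain corepressor, was nearly closed in all controls. It had 1.40, 26.3 and 26.3 normalised tags in C57BL/6J LPS libraries and 0, 0, 0 and 1.33 in C57BL/6J controls. In BALB/cJ it had 31.4 and 44.0 under LPS and 0, 0.975, 1.34 and 0.737 in controls, and in CB6F1/J 68.1 to 117 under LPS and 2.66 to 4.40 in controls. C57BL/6J LPS replicate 1 lay just above its highest control, while in BALB/cJ and CB6F1/J every LPS library lay far above every control. Elements picked as the largest LPS changes of a family, here and below, had to have no overlap of groups in either inbred strain. Their separation in the inbred strains was therefore fixed by the choice. The log2 ratio was 5.76 ± 0.98 (SE, adjusted p = 4.4e-05) in C57BL/6J, 5.49 ± 0.77 in BALB/cJ and 4.83 ± 0.39 in CB6F1/J by edgeR. The Ppp3cc element, in an intron of a calcineurin catalytic subunit gene, rose by 3.72 ± 0.62, 3.53 ± 0.63 and 3.88 ± 0.33 in the same order of strains.

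The B1_Mm element in an intron of Cox4i2, an isoform of cytochrome c oxidase subunit 4, went the other way. It had 0 tags in all 3 C57BL/6J LPS libraries and both BALB/cJ LPS libraries, against 9.28, 11.2, 3.90 and 15.96 in C57BL/6J controls and 13.2, 4.88, 9.40 and 8.48 in BALB/cJ controls. With a floor of 3 counts over the LPS group it was at least 10.3-fold lower under LPS in C57BL/6J and at least 6.49-fold lower in BALB/cJ. In CB6F1/J, 7.62 to 15.9 tags under LPS and 42.5 to 55.8 in controls gave a log2 ratio of -1.92 ± 0.37 (edgeR adjusted p = 9.2e-05). LPS and control libraries were separate in the 3 strains. Not every B1 element that fell in the inbred strains did so in the hybrid. A B1_Mus2 element near Bbs5, a part of the BBSome of cilia, averaged 0.283 tags in C57BL/6J LPS and 23.4 in control libraries, and 22.7 in CB6F1/J LPS and 24.1 in CB6F1/J control libraries (log2 ratios -5.85 ± 1.00 and -0.06 ± 0.58).

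Among B2 elements, the B3A in an intron of Hdac9, a class IIa histone deacetylase, gave some of the widest differences. Its LPS libraries had 9.83, 94.3 and 99.6 tags in C57BL/6J, against 1.16, 3.21, 1.30 and 3.99 in controls. BALB/cJ LPS libraries had 89.7 and 53.6 tags, against 0, 0, 1.34 and 0 in controls, and CB6F1/J libraries had 234 to 398 under LPS, with a median of 304, against 1.80 to 16.1 in controls. All LPS libraries lay above all controls of their strain, with C57BL/6J replicate 1 the nearest to them. The log2 ratios were 4.97 ± 0.65, 8.74 ± 0.88 and 5.17 ± 0.33 in C57BL/6J, BALB/cJ and CB6F1/J. A B3 element 22106 bases from Slc40a1, which encodes the iron exporter ferroportin, had 9.83, 42.5 and 60.5 tags in C57BL/6J LPS and 5.80, 6.42, 2.60 and 6.65 in C57BL/6J control libraries. It had 39.2 and 53.6 in BALB/cJ LPS and 6.59, 5.85, 18.8 and 2.67 in BALB/cJ control libraries, and 149 to 192 in CB6F1/J LPS and 13.3 to 27.0 in CB6F1/J control libraries. No LPS library overlapped its controls, and the log2 ratios were 2.82 ± 0.58, 2.74 ± 0.59 and 3.17 ± 0.25. A B3 element near Batf3, a basic leucine zipper partner of JUN, rose by 1.92 ± 0.50, 3.01 ± 0.51 and 3.02 ± 0.26. The B2_Mm1a in an intron of Aacs, an acetoacetyl-CoA synthetase, had 7.02, 0.849 and 0 tags in C57BL/6J LPS and 28.99, 44.9, 22.1 and 39.9 in C57BL/6J control libraries, and 1.74 and 0 in BALB/cJ LPS and 13.2, 18.5, 24.2 and 5.25 in BALB/cJ control libraries. It fell by 4.00 ± 0.69 and 3.86 ± 0.95 on the log2 scale, and had no matching peak in the hybrid.

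Among B4 elements, the one in an intron of Esd, an esterase gene, had 12.6, 13.6 and 24.7 tags in C57BL/6J LPS libraries and 0 in all 4 controls, so it was at least 22.96-fold higher under LPS. It had 21.8 and 29.9 tags in BALB/cJ LPS and 0, 0, 0 and 1.20 in BALB/cJ control libraries (log2 ratio 4.93 ± 0.76), and 47.0 to 105 in CB6F1/J LPS and 7.19 to 19.1 in CB6F1/J control libraries (2.13 ± 0.35). LPS and control libraries were separate in each strain. An RSINE1 10232 bases from Abca1, which encodes the cholesterol exporter of macrophages, had 0, 18.7 and 17.5 tags in C57BL/6J LPS and 0, 0, 0 and 2.66 in C57BL/6J control libraries. It had 13.1 and 23.7 in BALB/cJ LPS and 0, 0, 0 and 1.29 in BALB/cJ control libraries, and 44.8 to 61.7 in CB6F1/J LPS and 4.58 to 12.6 in CB6F1/J control libraries. The groups overlapped in C57BL/6J through LPS replicate 1, and the log2 ratios were 4.35 ± 1.11, 4.39 ± 0.95 and 2.78 ± 0.38. Also in B4, an RSINE1 near Ifih1, the sensor of long double-stranded RNA known as MDA5, rose by 1.89 ± 0.64, 3.19 ± 0.67 and 2.85 ± 0.26, and a B4A in Tnip2, an inhibitor of NF-kB activation, by 1.91 ± 0.72, 3.74 ± 0.73 and 2.49 ± 0.28. In C57BL/6J both rest on 2 of 3 libraries, since LPS replicate 1 had 0 tags at Ifih1 and 1.40 at Tnip2, and each lost its C57BL/6J call under 6 of 13 alternatives. An RSINE1 near Entpd1, which encodes the ATP-degrading enzyme CD39, fell by 3.61 ± 0.91 in C57BL/6J and 3.92 ± 0.95 in BALB/cJ, with a log2 ratio of -1.24 ± 0.59 in CB6F1/J that did not pass (adjusted p = 0.099).

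Among MIR elements, an intronic MIR 1880 bases from the start of Upk3b, a uroplakin gene, had 12.6, 67.9 and 47.8 tags in C57BL/6J LPS and 2.90, 0, 0 and 0 in C57BL/6J control libraries. In BALB/cJ it had 41.8 and 100.3 under LPS and 6.59, 0.975, 1.34 and 0.737 in controls. The groups were separate, with log2 ratios of 5.08 ± 0.73 and 5.50 ± 0.69. The MIR of Magi2, a scaffold protein gene, averaged 18.6 tags in C57BL/6J LPS and 0.470 in control libraries, and rose by 5.01 ± 0.94, 5.14 ± 0.86 and 3.11 ± 0.27 in C57BL/6J, BALB/cJ and CB6F1/J. A MIRb near Ch25h, whose product makes 25-hydroxycholesterol, had 22.5, 56.9 and 45.4 tags in C57BL/6J LPS and 13.3, 8.02, 7.80 and 6.65 in C57BL/6J control libraries. It had 42.7 and 87.1 in BALB/cJ LPS and 10.5, 13.7, 5.37 and 6.17 in BALB/cJ control libraries, and 179 to 233 in CB6F1/J LPS and 8.81 to 26.6 in CB6F1/J control libraries. Again no library overlapped, with log2 ratios of 2.15 ± 0.46, 2.93 ± 0.48 and 3.70 ± 0.28. MIR elements that fell had smaller ratios, such as the MIR3 near Efcc1 with -2.71 ± 0.89 in C57BL/6J, -2.43 ± 0.94 in BALB/cJ and -0.92 ± 0.40 in CB6F1/J, the last not called. The Efcc1 call was lost under 8 of 12 alternatives in BALB/cJ and under 2 of the 7 with a test in C57BL/6J, where 6 others left the peak below the minimum count, and 4 of 12 alternatives called it in CB6F1/J.

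**Figure D3:**
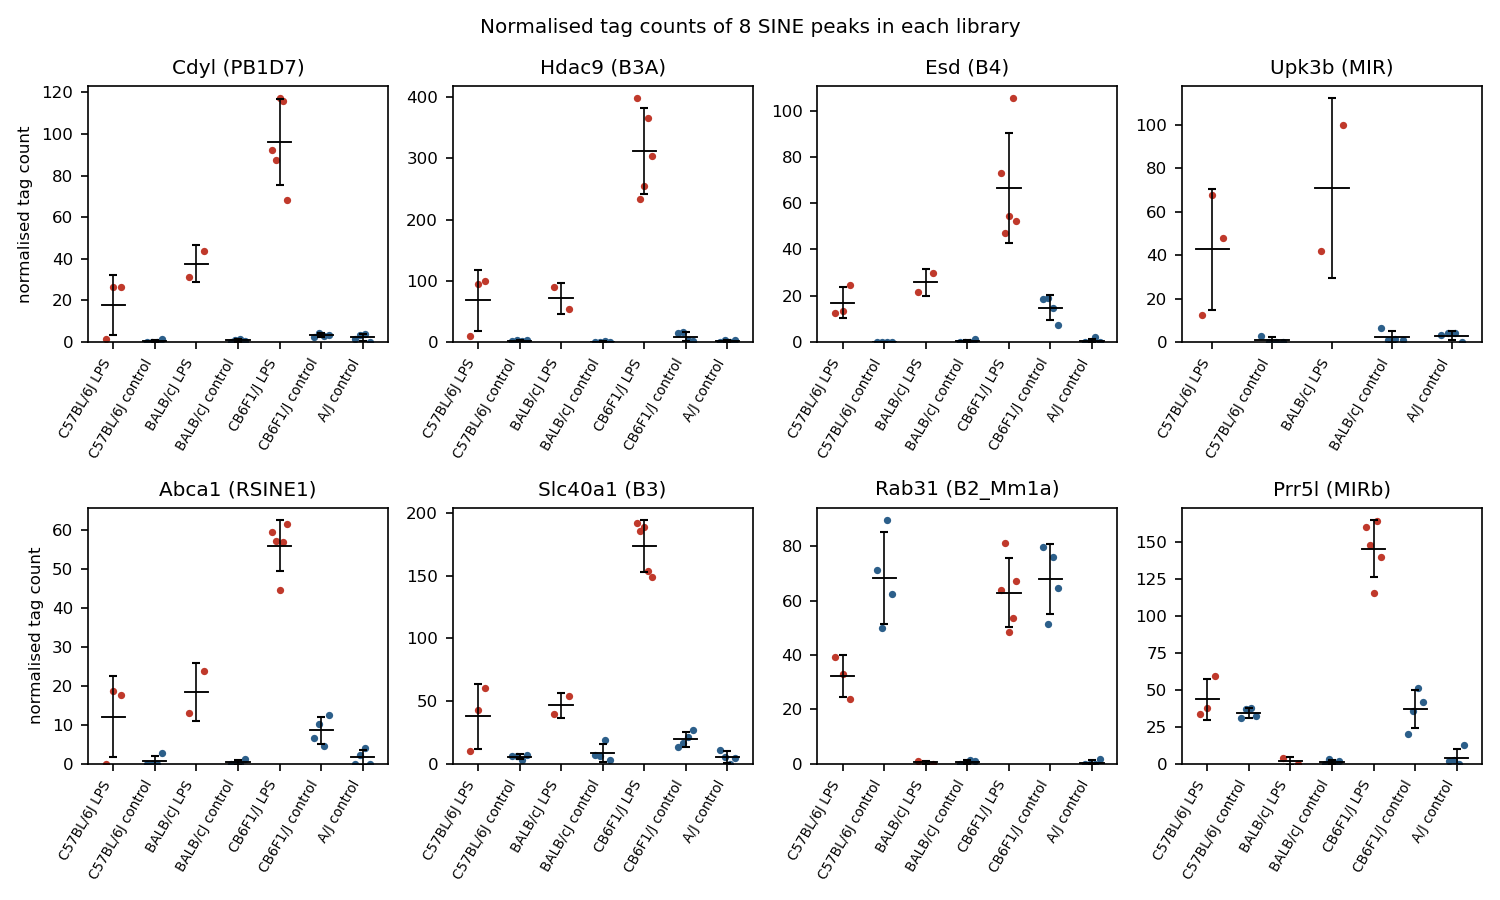
Normalised tag counts of 8 SINE peaks in each library, named by the gene with the nearest start and the repeat, with a point per library (LPS red, control blue), a line at the mean and a bar of 1 SD. The first 6 elements stand above their controls in every LPS library with a matching peak except C57BL/6J LPS replicate 1 at Abca1, which had 0 tags, while Rab31 and Prr5l are open in C57BL/6J and CB6F1/J and near 0 in BALB/cJ. C57BL/6J and BALB/cJ counts and CB6F1/J counts come from separate tables and their heights are not comparable.

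The AP-1 letters divided the members more sharply than the family did. In C57BL/6J, 298 of 711 members with TGANTCA rose (41.9%), against 243 of 2781 without it (8.74%). In BALB/cJ the shares were 54.3% and 12.2%, and in CB6F1/J 64.1% and 18.8%. Peaks outside promoters in general had almost the same values, 41.6% and 8.91% in C57BL/6J mice, 51.5% and 12.2% in BALB/cJ and 60.4% and 19.1% in CB6F1/J, so the division was not particular to SINEs. By family, 50.4% of B1, 35.7% of B2, 39.1% of B4 and 47.3% of MIR peaks with the letters rose in C57BL/6J, against 7.56%, 5.74%, 10.3% and 12.7% of those without. In CB6F1/J it was 69.6% of B1, 59.5% of B2, 61.5% of B4 and 70.1% of MIR peaks with the letters, against 19.1%, 10.7%, 20.6% and 28.1% without. Members with the letters rarely fell, in 1.55%, 1.28% and 0.797% of tests in C57BL/6J, BALB/cJ and CB6F1/J, and so did peaks outside promoters with the letters (1.35%, 2.17% and 1.12%). The letters were in 60.8% of the 413 members that rose in both inbred strains and in 4.10% of the 122 that fell in both, beside 52.2% of 8273 and 2.70% of 3150 peaks outside promoters. In these counts the letters are a description of the sequence, and no other property that goes with them was held constant.

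**Figure D4:**
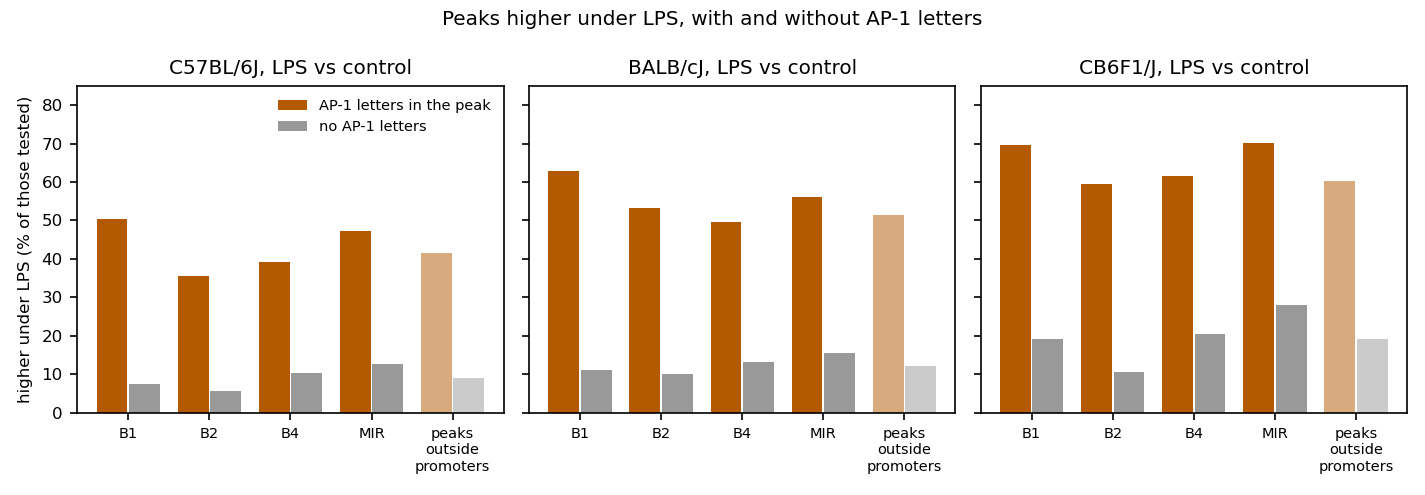
Percentage of tested peaks called higher under LPS among those with the AP-1 letters TGANTCA (orange) and without them (grey), by SINE family, with all autosomal peaks outside promoters in paler bars. In C57BL/6J the orange bars run from 35.7% for B2 to 50.4% for B1 and the grey bars from 5.74% for B2 to 12.7% for MIR.

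Where the letters sat differed between families. In B2, 141 of the 236 peaks with TGANTCA (59.7%) had them in soft-masked bases of the reference, against 19.5% in B1, 24.3% in B4 and 0.641% in MIR. How the reference was masked is not given in the sources used here, and diverged MIR copies are little masked in it. B2 copies held a near match more often than the letters themselves. TGAGCCA without TGANTCA was in 352 B2 peaks (31.6%), against 4.91% of peaks outside promoters, and TGAGTCA was in 212 (19.03%). Of tested B2 peaks with TGAGTCA, 75 of 205 (36.6%) rose in C57BL/6J and 112 of 180 (62.2%) in CB6F1/J. With TGAGCCA alone it was 16 of 338 (4.73%) and 32 of 284 (11.3%), and with neither 33 of 515 (6.41%) and 45 of 436 (10.3%). Among B2_Mm1a, B2_Mm1t and B2_Mm2, 189 of 302 peaks held TGAGCCA without TGANTCA, and 8 of 150 (5.33%) rose in CB6F1/J. The 49 peaks of these subfamilies with TGAGTCA gave 24 of 39 (61.5%). In all peaks outside promoters, TGAGTCA went with 62.1% and TGAGCCA with 22.6% in CB6F1/J, and neither with 18.9%. The Aacs element printed above holds TGAGCCA from base 158.

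Members with much repeated sequence behaved differently in the inbred strains and in the hybrid. With no repeated 30-mer, the median log2 ratio of LPS to control was 0.244 in C57BL/6J and 0.270 in BALB/cJ. It was 0.106 and 0.206 with up to 10% repeated, and -0.220 and -0.123 with 10 to 50%. With 50% or more it was -1.44 in C57BL/6J, where 2 of 134 members rose and 60 fell (44.8%), and -1.43 in BALB/cJ, where 0 of 121 rose and 48 fell (39.7%). At an unadjusted p under 0.05 in edgeR, 66 of these 121 members passed in BALB/cJ, beside 471 of 876 peaks outside promoters of that class. In CB6F1/J the same class had a median of 0.063, and 11.5% of members rose and 6.90% fell. For peaks outside promoters in that class the median was -1.26 in C57BL/6J mice, while BALB/cJ had -1.22 and CB6F1/J -0.05. Of these peaks 4.14% rose and 42.4% fell in C57BL/6J, 3.54% and 39.04% did so in BALB/cJ, and 18.3% and 15.6% in CB6F1/J. By subfamily, of tested B1_Mus1 peaks 4 rose and 14 fell of 55 in C57BL/6J and 3 and 21 of 55 in BALB/cJ, against 7 and 4 of 33 in CB6F1/J. Of B2_Mm2 peaks 11 rose and 33 fell of 228 in C57BL/6J, 25 and 24 of 216 in BALB/cJ and 31 and 10 of 190 in CB6F1/J. Of MIRc peaks 29 rose and 2 fell of 116 in C57BL/6J and 47 and 4 of 106 in CB6F1/J. Since the trim to 30 bases runs with treatment in the inbred strains, LPS and library handling cannot be told apart in these values.

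**Figure D5:**
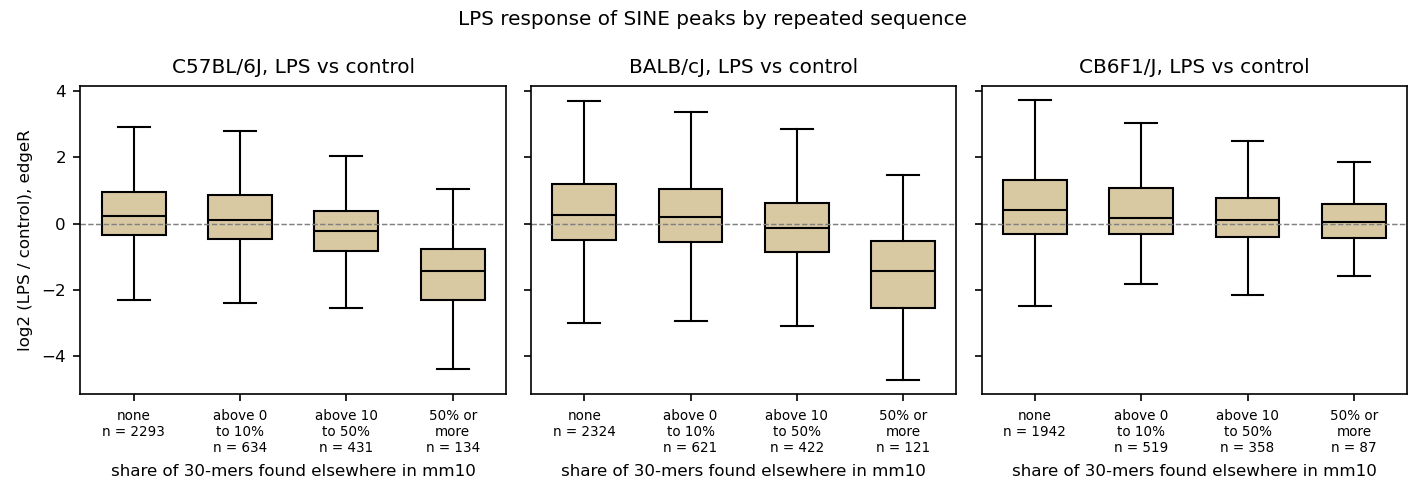
log2 ratio of LPS to control of SINE peaks by the share of their 30-mers that occur elsewhere in mm10, with a box from the lower to the upper quartile, a line at the median and whiskers to 1.5 times the box length. In the class of 50% or more the median is -1.44 for C57BL/6J, -1.43 for BALB/cJ and 0.063 in CB6F1/J.

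Gene lists were read by the gene with the nearest start. Few members lay near cytokine genes, and 6 of 8 tested in CB6F1/J rose, against 3 of 10 in C57BL/6J and 0 of 10 in BALB/cJ, where 3 passed an unadjusted p under 0.05 in edgeR. Over all peaks outside promoters near these genes 124 of 234, 76 of 282 and 85 of 281 rose in the same order. In BALB/cJ 140 of these 281 passed an unadjusted p under 0.05 in edgeR. One member is an MIR near Ccl2, which encodes the main monocyte chemoattractant, with log2 ratios of 1.01 ± 0.28, 0.72 ± 0.31 and 1.58 ± 0.18 in C57BL/6J, BALB/cJ and CB6F1/J, the BALB/cJ value not called. An RSINE1 in Il15, a cytokine of T and NK cells, gave 1.26 ± 0.44, 0.97 ± 0.49 and 1.89 ± 0.34, again not called in BALB/cJ. For NF-kB components and regulators 3 of 15, 2 of 14 and 4 of 9 rose in the 3 strains and 0 fell, beside 22.7%, 25.2% and 45.3% higher and 7.14%, 7.84% and 2.80% lower over all peaks outside promoters near these genes. The B1F in Malt1, a paracaspase of NF-kB signalling, rose in each by 2.26 ± 0.57, 3.85 ± 0.65 and 3.08 ± 0.31. For interferon response genes 4 rose and 2 fell of 9 in C57BL/6J, 3 and 1 of 9 in BALB/cJ and 2 and 0 of 7 in CB6F1/J, beside 27.0%, 28.9% and 43.2% higher and 6.32%, 7.69% and 7.05% lower over all such peaks. One of the members that fell was the B2_Mm1a near Trim25, an activator of RIG-I, at -4.22 ± 1.07 in C57BL/6J. Lipid handling and LXR target genes had 6 rises in each strain (of 25, 28 and 26, that is 24.0%, 21.4% and 23.1%) and 1, 2 and 2 falls, beside 12.04%, 18.4% and 24.5% higher and 7.02%, 11.7% and 7.00% lower over all such peaks. The RSINE1 in Npc2, a lysosomal cholesterol carrier, was at 1.76 ± 0.59, 2.75 ± 0.68 and 2.70 ± 0.29. Kupffer cell identity genes had 5 rises and 2 falls of 29 in C57BL/6J, 5 and 4 of 29 in BALB/cJ and 7 and 0 of 20 in CB6F1/J, beside 15.5%, 17.9% and 39.8% higher and 9.09%, 13.8% and 3.503% lower over all such peaks. Genes of the AP-1, EGR, ATF and MAF families had 2 and 3 of 21, 3 and 3 of 21 and 4 and 0 of 17, beside 14.0%, 16.99% and 27.0% higher and 12.9%, 15.7% and 7.35% lower. MHC genes had 1 and 2 of 10, 1 and 2 of 9 and 2 and 0 of 7, beside 4.61%, 10.7% and 18.9% higher and 11.2%, 10.00% and 4.72% lower. TLR4 signalling genes had 2 and 0 of 7, 2 and 1 of 7 and 3 and 1 of 5, beside 14.4%, 20.8% and 30.9% higher and 6.11%, 13.4% and 6.60% lower, and among these members was the RSINE1 nearest to Map3k8, a kinase downstream of TLR4, which rose by 1.497 ± 0.39, 2.63 ± 0.41 and 1.68 ± 0.22. The B3A near Fos, an AP-1 subunit, was called in BALB/cJ alone (-3.43 ± 1.33, adjusted p = 0.045), with -1.56 ± 0.84 and -1.48 ± 0.78 in C57BL/6J and CB6F1/J. The Fos call was lost under 6 of the 10 alternatives with a test in BALB/cJ, and 1 of 13 alternatives called the peak in C57BL/6J and 2 of 12 in CB6F1/J.

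Strain differences at baseline were rarer than LPS changes. In comparisons with C57BL/6J controls, strain and the library handling given above cannot be told apart. Between C57BL/6J and BALB/cJ controls, 72 of 1439 tested members were higher in C57BL/6J (5.00%) and 66 lower (4.59%), beside 3.14% and 4.16% of all tested peaks. All tested peaks include promoters, which the members leave out. Among peaks with no repeated 30-mer, 4.12% of members were higher and 4.41% lower, beside 3.23% and 4.91% of autosomal peaks outside promoters. The 138 calls were 87 without BALB/cJ control replicate 4, and 7 of the 66 lower members lie in the chromosome 11 interval described at the end, where C57BL/6J controls stand apart. B2 had 27 higher and 13 lower of 356, B4 16 and 24 of 398, MIR 18 and 17 of 401 and B1 11 and 9 of 246. Between A/J and BALB/cJ, 38 of 1382 members were higher in A/J and 50 lower, beside 1.58% and 3.00% of all peaks, and the 88 calls were 56 without A/J control replicate 2. With no repeated 30-mer, 2.74% of members were higher and 3.96% lower, beside 1.68% and 3.69% outside promoters. Between A/J and C57BL/6J, 58 of 1451 were higher in A/J and 74 lower, beside 3.29% and 3.87%, and 7 of the 58 lie in the same interval. MIR leaned to lower accessibility in A/J, with 8 higher and 21 lower of 382 against BALB/cJ and 9 and 24 of 387 against C57BL/6J, comparisons that share the A/J libraries. Peaks outside promoters with no repeated 30-mer leaned that way too, though only slightly against C57BL/6J, so the direction was not particular to MIR. Of these, 575 were higher (1.68%) and 1263 lower (3.69%) of 34189 against BALB/cJ. Against C57BL/6J, 1250 (3.66%) were higher and 1426 (4.17%) lower of 34171. Whether MIR leaned further than these peaks was not tested. Between C57BL/6J and BALB/cJ under LPS, 56 of 1917 were higher and 59 lower, beside 2.45% and 2.83%, and the 115 calls were 57 without BALB/cJ LPS replicate 2.

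Some elements were open in 1 strain and closed in another. The B2_Mm1a in an intron of Rab31, a GTPase of vesicle traffic (chr17:65763618-65763818), had 71.3, 49.7, 89.7 and 62.5 tags in C57BL/6J controls and 0, 0, 1.34 and 0.829 in BALB/cJ controls, and A/J had 0, 0, 0 and 1.56. C57BL/6J LPS libraries had 39.3, 33.1 and 23.9 tags and BALB/cJ LPS libraries 0.871 and 0. No C57BL/6J library came near those of the other 2 strains, and the log2 ratio was 6.44 ± 0.51 between controls and 5.93 ± 0.83 under LPS. Of its 30-mers 41.3% are repeated, and whether BALB/cJ and A/J carry the insertion was not tested. The MIRb in Prr5l, whose product binds mTORC2, had 30.7, 36.9, 37.7 and 31.9 tags in C57BL/6J controls and 0, 2.93, 0 and 1.75 in BALB/cJ controls (4.41 ± 0.59). The MIR in Slc13a1, a sulfate transporter gene, was the reverse, with 5.22, 1.60, 3.90 and 3.99 in C57BL/6J controls and 76.5, 78.0, 73.8 and 61.3 in BALB/cJ controls (-4.13 ± 0.34), and it rose under LPS in both by 1.20 ± 0.44 and 1.07 ± 0.28. Its groups were far apart in every library, though peaks picked for a strain difference were chosen among those without overlap. The ID_B1 in Pxn, which encodes the adhesion protein paxillin, had 4.63, 2.19, 8.14 and 1.56 tags in A/J and 97.6, 98.5, 71.1 and 98.0 in BALB/cJ controls (-4.57 ± 0.47), with C57BL/6J controls low as well at 2.60 to 13.3. The B1_Mm of H2-DMa, a peptide loader of MHC class II, averaged 28.6 in C57BL/6J and 4.74 in BALB/cJ controls (2.80 ± 0.59).

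In the hybrid both parental alleles share 1 nucleus, and tags that span a variant can be assigned to either. Such tags were sufficient for 171 members in LPS hybrids, where 27 were higher on the C57BL/6J allele and 14 lower (15.8% and 8.19%), beside 9.96% and 7.97% of all tested peaks. In control hybrids 80 members could be tested and 3 were higher and 2 lower, beside 2.97% and 3.10%, and 0 passed without control replicate 1 and 3 without control replicate 4. The Prr5l element had 192, 144, 90, 201 and 92 variant tags on the C57BL/6J allele of the LPS hybrids and 16, 8, 5, 17 and 1 on the BALB/cJ allele (log2 ratio 3.97 ± 0.28, adjusted p = 0.00026). The Rab31 element had 54, 49, 16, 34 and 44 on the C57BL/6J allele and 3, 2, 1, 13 and 0 on the BALB/cJ allele (3.49 ± 0.66). Each animal had more tags on the C57BL/6J allele at both elements. Summed over LPS hybrids, C57BL/6J and BALB/cJ tags were 340 and 23 at a MIRb near Sik1, a salt-inducible kinase, 553 and 217 at an ID_B1 near Tnfrsf1a, the main TNF receptor, 530 and 72 at an RSINE1 near Slc30a9, a zinc transporter, 619 and 168 at a PB1D10 near Lgals3, which encodes galectin-3, and 54 and 133 at a MIR3 near Wasf2, a regulator of actin assembly. Of the 138 members called between C57BL/6J and BALB/cJ controls, 33 could be tested on LPS hybrid alleles. Of these 15 were called in the same direction, 0 in the opposite one, and 32 had the same sign, that is 45.5% and 96.97%, beside 50.6% and 93.1% of 813 peaks outside promoters so tested. On control hybrid alleles 21 could be tested, 4 were called in the same direction and 21 had the same sign (19.05% and 100%), beside 30.8% and 96.1% of the peaks outside promoters so tested. A PB1D10 near Rbm47, an RNA-binding protein gene, differed between alleles under LPS (285 and 61 tags, 2.21 ± 0.20). Between C57BL/6J and BALB/cJ its log2 ratio was 0.11 under LPS and -0.08 in controls, neither of them called.

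The LPS response itself differed between C57BL/6J and BALB/cJ in 15 of 3607 members, 14 with a larger ratio in C57BL/6J and 1 with a smaller one, beside 0.145% of all peaks called either way. At an unadjusted p under 0.05, 302 of these 3607 members passed in edgeR. The share of all peaks that passed at that threshold is not given here. Of the 15, 13 lay in a single 100000-base interval of chromosome 11 (3100001 to 3200000) around Pisd-ps1, a pseudogene, and Sfi1, a centrosomal gene. In that interval 75 of all 105 tested peaks were called and 13 of 20 members, and these 75 are among the 138 calls over all peaks. It holds 20 members, the densest cluster of the genome, and the next densest interval of that size holds 10. Its counting windows overlap, and a median of 19.8% of their 30-mers is repeated. A B4A element in Sfi1 had 1059 to 1539 tags in C57BL/6J LPS and 0 to 2.60 in C57BL/6J control libraries, 1061 to 1191 in BALB/cJ LPS and 1559 to 2308 in BALB/cJ control libraries, and 707 to 1169 in A/J controls. The C57BL/6J controls alone were near 0, and the difference of log2 ratios was 10.84 ± 0.39. Summed over the 20 members the interval had 1882 to 2871 in C57BL/6J LPS and 155 to 267 in C57BL/6J control libraries, and 1630.4 to 1694 in BALB/cJ LPS and 2108 to 2943 in BALB/cJ control libraries. The 7 members matched in the hybrid summed to 228 to 385 under LPS and 508 to 824 in controls. Among inbred libraries, those of the C57BL/6J controls are the sole ones to lack the word shift in their names and to have a header fragment length of 34. Library handling and the response cannot be told apart there, and the same holds for other comparisons with these libraries. Outside the interval, the MIRb of Shbg, the sex hormone-binding globulin gene, had 2.81, 15.3 and 19.9 tags in C57BL/6J LPS and 1.16, 6.42, 5.20 and 9.31 in C57BL/6J control libraries. It had 25.3 and 30.8 in BALB/cJ LPS and 0, 0.975, 0 and 0 in BALB/cJ control libraries. The difference was -5.94 ± 1.29 (edgeR adjusted p = 0.039), 1 of the 4 BALB/cJ controls had any tags, and in CB6F1/J the element rose by 3.13 ± 0.36. The Shbg difference was no longer called when any of 9 of the 13 libraries was left out. The other is a B1_Mus1 of Pisd-ps2 with 2.67, whose window is 58.3% repeated.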

How the data were processed

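Per the labels and the study's methods, the authors aligned ATAC-seq reads with Bowtie2, to mm10 for C57BL/6J and to a pseudogenome for BALB/cJ and A/J whose positions were then shifted to mm10, and merged reproducible peaks of all inbred groups. The deposited inbred table holds raw counts in 1000-base windows, made with HOMER. In the deposited control columns and in the deposited hybrid table a mate weighs 0.5, so those are expected counts and were rounded up to whole tags. Hybrid tags were deposited for all reads and for reads that span a variant, and 27 columns of that table were not used. Of the deposited peak lists, whose values are a depth-scaled signal, only the header lines with total tags and library names were read. The members and gene lists were chosen with earlier results of these data known.

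Counts were fitted with edgeR 4.0.16 (R 4.3.3), with TMM factors and a mean per group over all 17 inbred libraries, and contrasts were tested by the quasi-likelihood test. Benjamini-Hochberg adjustment ran over all tested peaks, those with a mean normalised count over 16 (strains, alleles) or 4 (LPS and its difference). A call needed an adjusted p under 0.05 and an absolute log2 ratio over 1. Allele fits kept the animal as a block, since both alleles come from the same mouse. Hybrid peaks were matched by 50% reciprocal overlap. P-values measure the spread between libraries of a group, which may be technical, and the floor of 3 counts covers counting error only.

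Peaks were named where the nearest gene start was within 100 kb and not of a predicted gene, 1 per gene. For LPS these were the 3 each way per family with the largest change in both inbred strains and no overlap of groups, for C57BL/6J against BALB/cJ controls the 2 each way, for the other strain comparisons 1 each way, for the response difference the 4 with the smallest p, and 3 per gene list. Peaks named for alleles, and for the response difference beyond those 4, were picked with their values in view. The scripts were tested on simulated data. Alternatives were DESeq2 1.42.0, other scaling, no minimum count, a replicate block, each library left out and only members whose windows reach no other, plus 2 added after seeing the data. Sequences came from RefSeq GRCm38.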

Additional observations from a re-analysis of the deposited data

Results flagged for a closer look

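Groups of 4 or 5 libraries were checked at the peaks shown and for the shares of peak tags in SINE peaks. Of 122 such checks, 17 found a library far from the others, all at peaks shown. Chance alone gives such flags too. Most were single controls with tags where the others had 0 or few. In controls these were Cdyl in C57BL/6J replicate 4 (1.33 normalised tags), Hdac9 in BALB/cJ replicate 3 (1.34), Esd in A/J replicate 3 (2.03) and BALB/cJ replicate 4 (1.20), Upk3b in BALB/cJ replicate 1 (6.59) and C57BL/6J replicate 1 (2.90), Rab31 in A/J replicate 4 (1.56), Shbg in BALB/cJ replicate 2 (0.975), Abca1 in BALB/cJ replicate 4 (1.29) and C57BL/6J replicate 4 (2.66), Pxn in BALB/cJ replicate 3 (71.1, below the others), and Tnip2 and Ch25h in CB6F1/J replicates 1 (35.9) and 3 (26.6). In CB6F1/J LPS libraries they were Entpd1 (18.1), Tnip2 (128) and Abca1 (44.8, below the others) in replicate 3 and Fos in replicate 5 (20.3).

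The LPS response differed between C57BL/6J and BALB/cJ by edgeR's test of the difference in 15 members. In the chromosome 11 interval the differences of log2 ratios were 10.84 (B4A), 7.59 (B3), 7.53 (RSINE1), 7.55 (B1_Mus2), 5.24 (B1_Mus1), 5.16 (PB1D10), 4.92 (B3) and 4.47 (B2_Mm2) for Sfi1, and 7.46 and 6.26 (both B1F), 6.96 (B3), 6.38 (B3A) and 4.73 (B4A) for Pisd-ps1. Outside it they were 2.67 (B1_Mus1 of Pisd-ps2) and -5.94 (MIRb of Shbg), the last lost under 9 of 19 alternatives.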

How the results depend on the processing

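Leaving out each library in turn gave 469 to 949 calls for LPS in C57BL/6J, 601 to 999 in BALB/cJ and 945 to 1007 in CB6F1/J, 87 to 166 for C57BL/6J against BALB/cJ controls, 56 to 111 and 101 to 124 for A/J against BALB/cJ and C57BL/6J, 57 to 118 for the strains under LPS, 10 to 19 for the response difference, and 0 to 5 and 32 to 46 for control and LPS alleles. Without members whose counting window reaches another, the counts were 439, 561, 76, 53, 68, 66 and 1 for the inbred comparisons in the same order, a smaller set by construction. Without a minimum count the strain comparisons gave 340, 160, 262 and 217 calls and control alleles 0. Variant-spanning tags gave 153 hybrid LPS calls from fewer tested peaks, DESeq2 gave 17 control allele calls, and 2 response differences were left without the densest interval, an alternative chosen after seeing the data.

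Same-numbered libraries gave correlations from -0.129 to 0.0902 for LPS against control within a strain. Between A/J and BALB/cJ controls they were 0.375 (replicate 2) and 0.360 (replicate 4), against at most 0.066 and 0.147 for other numbers. Replicates 1 and 3 gave 0.118 and 0.054, below 0.217 and 0.139 for other numbers. Between C57BL/6J and BALB/cJ controls replicates 2 and 4 gave 0.286 and 0.238, and 1 and 3 gave 0.059 and 0.074. The main fits kept no replicate block, and what such libraries shared was not tested. With a replicate block the strains under LPS gave 174 calls, against 115, and the other inbred and hybrid counts were 746, 1013, 148, 97, 153, 19 and 1013. Without the animal block the alleles gave 14 (control) and 45 (LPS). Relative to tags outside promoters, the LPS to control ratios of B1, B2, B4 and MIR shares were 1.03, 1.09, 1.15 and 1.16 for C57BL/6J, 1.11, 1.22, 1.10 and 1.14 for BALB/cJ and 1.04, 0.968, 1.05 and 1.19 for CB6F1/J, and of all members 1.12, 1.13 and 1.06. Of 626 tested values of the shown peaks under alternatives, 575 kept their call, 42 lost it, 9 gained one and 0 changed sign, and 14 more fell under the minimum count. Calls were lost most often at Shbg (9), Efcc1 (8 in BALB/cJ, 2 in C57BL/6J), Fos (6 in BALB/cJ), Ifih1 and Tnip2 (6 each in C57BL/6J). Scaling moved the median log2 ratio of all peaks under LPS by 0.107 (C57BL/6J) and 0.125 (BALB/cJ) with total counts and by -0.172 (CB6F1/J) with DESeq2. The causes were not tested.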
